A study of Homo sapiens with 6 samples.

Results

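The albumin gene family consists of 4 genes on human chromosome 4, ALB, AFP, AFM and GC, and all 4 had a row among the 16720 named rows of the count table. They were chosen by family name, with earlier results of the same comparison known, so the values of sgRFX6 against sgControl below describe the members and no p-value is given for them. Of the 4 members, 3 passed the filter on low counts that left 12839 genes for testing (ALB, AFP and GC), and AFM did not. RNA was sequenced in bulk from 6 libraries labelled Hep3B, an established cell line from a human hepatocellular carcinoma. The sgControl group held 3 libraries with a WT genotype label, and the sgRFX6 group held 3 libraries of cells in which RFX6, a winged helix transcription factor of the regulatory factor X family, was targeted with Cas9 and a guide RNA. The count columns name a guide called sg3 for the knockout libraries and carry only the word cas for the control libraries. By the study's methods, guides were delivered with the lentiCRISPRv2 vector, cells were selected with puromycin, and clones grown from single cells were expanded. Whether the 3 libraries of a group came from separate clones or cultures is not stated, so the spread between them may be technical. The adjusted p-values below treat the 3 libraries as separate replicates. If each group came from a clone of its own, a clone difference cannot be told apart from an effect of the guide. In bulk RNA, fewer cells that express a gene and less RNA of that gene per cell cannot be told apart.

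The family encodes carrier proteins that the liver secretes into blood. Albumin (ALB) is the main plasma protein of adults and carries fatty acids, bilirubin and many drugs. Alpha-fetoprotein (AFP) is its fetal counterpart, which is high in fetal liver and yolk sac, is silenced after birth and returns in many hepatocellular carcinomas, where it serves as a serum marker. Afamin (AFM) carries vitamin E and binds Wnt proteins, and the vitamin D binding protein (GC) carries vitamin D metabolites and binds free actin. In liver, transcription of ALB and AFP depends on C/EBP and FOXA factors and on shared enhancers in the locus.

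ALB, AFP and AFM lie next to each other on the plus strand of chromosome 4, in that order, while GC lies apart from them on the minus strand. In GENCODE release 29 on GRCh38, ALB spans chr4:73397114-73421412, AFP chr4:73431138-73456174, AFM chr4:73481683-73504001 and GC chr4:71741693-71804041. The gap between ALB and AFP is 9725 bp, that between AFP and AFM is 25508 bp, and 1.59 Mb separate GC from ALB. The sequences just upstream of the first 3 genes are shown so that the promoter letters of the neighbouring members can be compared. Each is the 250 bases before the RefSeq start on GRCh38.p14, plus strand, 5′ to 3′, and 3 of the 4 members matched an entry. The GENCODE spans of ALB and AFP begin upstream of these windows, and that of AFM begins inside its window. Capitals mark matches to TATAAA, the TATA box. The windows are chr4:73404037-73404286 for ALB, chr4:73435971-73436220 for AFP and chr4:73481495-73481744 for AFM.
ALB: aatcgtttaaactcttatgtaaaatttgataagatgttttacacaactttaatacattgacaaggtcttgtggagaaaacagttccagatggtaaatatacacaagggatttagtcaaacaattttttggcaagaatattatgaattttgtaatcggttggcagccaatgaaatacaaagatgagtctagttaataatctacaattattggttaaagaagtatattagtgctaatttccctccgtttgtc
AFP: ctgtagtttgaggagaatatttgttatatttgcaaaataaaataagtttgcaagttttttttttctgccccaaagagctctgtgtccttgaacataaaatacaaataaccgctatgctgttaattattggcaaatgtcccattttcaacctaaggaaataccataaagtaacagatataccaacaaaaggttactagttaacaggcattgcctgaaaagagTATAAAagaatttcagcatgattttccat
AFM: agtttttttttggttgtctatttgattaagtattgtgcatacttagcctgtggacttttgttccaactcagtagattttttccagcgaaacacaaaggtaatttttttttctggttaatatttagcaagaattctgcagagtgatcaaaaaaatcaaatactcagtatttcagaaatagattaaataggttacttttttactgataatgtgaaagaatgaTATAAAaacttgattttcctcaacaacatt
TATAAA started 29 bases before the start of AFP and 30 bases before that of AFM, was not in the ALB window, and was held on either strand by 11.1% of the 27305 windows of this length in the RefSeq table. GTTGCC, part of the X-box that RFX factors bind, was in none of the 3 windows on either strand, and 10.1% of all windows held it. These are matches of letters, not sites shown to be bound.

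The libraries held between 16730374 and 25070770 counts, and levels are given in CPM, the counts scaled to library size with edgeR's TMM factors. At these depths 3 counts equal 0.121 to 0.188 CPM. Between libraries of a group the counts scattered more than sampling noise allows (chi-square divided by its degrees of freedom, 16.9 to 122). Those differences moved with base composition (Spearman correlation over genes, -0.83 to 0.53), and sgControl library 2 and sgRFX6 library 3 stood farthest from the others of their group. RFX6, the targeted gene, stood at 6.27 ± 0.931 CPM (SD, n = 3) in sgControl against 3.54 ± 0.146 CPM (SD, n = 3) in sgRFX6. The groups did not overlap, and the log2 fold change of -0.82 (SE 0.26) was not called by edgeR (adjusted p = 0.142). The paper reports that its RFX6 knockout was checked by PCR of the mRNA and by western blotting of the protein.

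The labelled cell type was checked against marker genes. For comparison, edgeR called 480 of the 12839 tested genes (3.74%) at an adjusted p under 0.05, and 2000 had an unadjusted p under 0.05. All 8 hepatocyte markers, ALB among them, were tested, and 1 was called lower (FGB, a fibrinogen chain) and none higher (12.5% called). Their summed level was 256 to 304 CPM in sgControl and 192 to 204 CPM in sgRFX6. Some defining genes were low, with 0.482 ± 0.321 CPM (SD, n = 3) of TTR and 1.06 ± 0.239 CPM (SD, n = 3) of APOA1 in sgControl. HNF4A, the hepatocyte nuclear receptor that the intestine also uses, stood at 151 ± 8.30 CPM (SD, n = 3). A list of 8 intestinal epithelial genes was added after the values were seen, and 6 of the genes were analysed here. Their summed level was 1269 to 2248 CPM in sgControl and 1980 to 2449 CPM in sgRFX6. CDH17, an intestinal cadherin, was at 317 ± 34.7 CPM (SD, n = 3) in sgControl and VIL1, the villin of the brush border, at 452 ± 107 CPM (SD, n = 3). In sgControl LGALS4 was at 571 ± 343 CPM (SD, n = 3) and KRT20 at 248 ± 52.0 CPM (SD, n = 3). CDX2 was at 32.4 ± 22.4 CPM (SD, n = 3) there and GPA33 at 0.408 ± 0.396 CPM (SD, n = 3). Of 6 genes of that list tested, 2 were called higher in sgRFX6 (33.3% called), a description only, since the list was picked with values known. They were KRT20 (log2 fold change 1.67, SE 0.22, adjusted p = 0.00430 from edgeR) and GPA33 (4.11, SE 0.80, adjusted p = 0.0251). The other 4 were not called and had log2 fold changes of 0.67 (CDH17), 0.11 (LGALS4), -0.43 (CDX2) and -0.59 (VIL1), and the VIL1 level in sgRFX6, 299.9 ± 24.9 CPM (SD, n = 3), came from libraries that all lay below the sgControl libraries. GPA33 lost its call without sgControl library 1 or 3 or sgRFX6 library 1. Of 5 fibroblast markers tested, 3 were called lower (60% called), COL1A1, COL1A2 and COL3A1. COL3A1 was at least 163-fold lower when 3 counts per library are taken as its limit in sgRFX6. The other tested fibroblast markers were not called, with log2 fold changes of 0.63 for LUM and -0.44 for DCN. COL1A1 lost its call without sgControl library 3 or sgRFX6 library 1. The summed level of all 7 fibroblast markers was 51.2 to 60.6 CPM in sgControl and 21.4 to 56.4 CPM in sgRFX6. None of the 4 biliary or progenitor, 1 endothelial or 4 blood or immune markers tested was called by edgeR, with 1, 0 and 1 of them at an unadjusted p under 0.05. Together the 6 biliary or progenitor genes stood at 606 to 976 CPM in sgControl and 416 to 758 CPM in sgRFX6, above the hepatocyte sums. Most of this was KRT19, at 736 ± 193 CPM (SD, n = 3) in sgControl. KRT7 had a log2 fold change of -1.70 (SE 0.54, adjusted p = 0.149 from edgeR), with groups that did not overlap. The values were -0.31 for KRT19, 0.73 for SOX9 and 0.50 for EPCAM. The red cell gene HBB had at most 3 counts and the T cell gene CD3E at most 1 count in a library. CD68 stood at 105 ± 44.9 CPM (SD, n = 3) in sgControl and 86.3 ± 21.9 CPM (SD, n = 3) in sgRFX6. LYZ had a log2 fold change of 1.99 (SE 0.46, adjusted p = 0.0526 from edgeR), with groups that did not overlap. CD14 had at most 45 and PTPRC at most 22 counts in a library, and CD68, CD14 and PTPRC had negative log2 fold changes. The part of these other marker genes in the values of the albumin family was not tested.

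AFP was the member that differed most between the groups. The sgControl libraries held 48, 39 and 51 AFP reads and the sgRFX6 libraries 201, 273 and 353. These counts correspond to 2.31, 1.58 and 2.20 CPM in sgControl and 9.98, 17.1 and 16.0 CPM in sgRFX6. The groups did not overlap, and the lowest sgRFX6 library was 4.32-fold above the highest sgControl library. The mean rose from 2.03 ± 0.395 CPM (SD, n = 3) to 14.4 ± 3.86 CPM (SD, n = 3), a ratio of 7.08. The log2 fold change was 2.82 (SE 0.32), which ranked 50 among the 12839 tested genes from the highest down. AFP was 1 of the 3 tested members called by edgeR at an adjusted p under 0.05, and it was called higher. Of all tested genes 480 (3.74%) were called, 247 (1.92%) as higher and 233 (1.81%) as lower in sgRFX6. AFP stood at place 44 by log2 fold change among the genes called higher, whose median was 1.87.

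ALB had the highest level of the family in sgControl and did not separate the groups. Its counts were 325, 793 and 298 in sgControl and 434, 293 and 576 in sgRFX6, or 15.7, 32.1 and 12.9 CPM against 21.5, 18.4 and 26.2 CPM. The sgControl library 2 was above all the others, and the other 2 sgControl libraries were below all 3 sgRFX6 libraries. On average ALB was at 20.2 ± 10.4 CPM (SD, n = 3) in sgControl and at 22.0 ± 3.90 CPM (SD, n = 3) in sgRFX6, and its log2 fold change was 0.13 (SE 0.35). Without sgControl library 2 the log2 fold change of ALB was 0.63, which edgeR did not call. On all libraries limma-voom with sample quality weights gave 0.56 and called it, in a fit that called 31.1% of all tested genes. The spread of ALB within sgControl, 2.50-fold from the lowest to the highest library, exceeded that of AFP (1.46-fold) and of GC (1.21-fold).

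GC was low but higher in each sgRFX6 library than in any sgControl library. It was counted 16, 23 and 18 times in sgControl and 27, 39 and 37 times in sgRFX6. Its levels were 0.771, 0.931 and 0.777 CPM against 1.34, 2.45 and 1.68 CPM. The sgControl mean of 0.826 ± 0.0910 CPM (SD, n = 3) compared with a sgRFX6 mean of 1.82 ± 0.569 CPM (SD, n = 3). The ratio was 2.21 and the log2 fold change 1.13 (SE 0.37). GC was not called by edgeR. Groups that did not overlap were found for 1536 tested genes (12.0%) with sgRFX6 higher and for 1436 (11.2%) with sgRFX6 lower, and for 2 of the 3 tested members, AFP and GC, both with sgRFX6 higher.

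AFM was at or near the detection limit in all libraries. It was counted 7, 0 and 9 times in sgControl and 1, 7 and 1 times in sgRFX6, and the groups overlapped. The library with no AFM read allows a level of up to 0.121 CPM, the level of 3 counts, for counting error alone. With the filter on low counts removed, the fitted log2 fold change of AFM was -0.53 (SE 1.10), so a difference of AFM was not detectable at this depth.

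**Figure D1:**
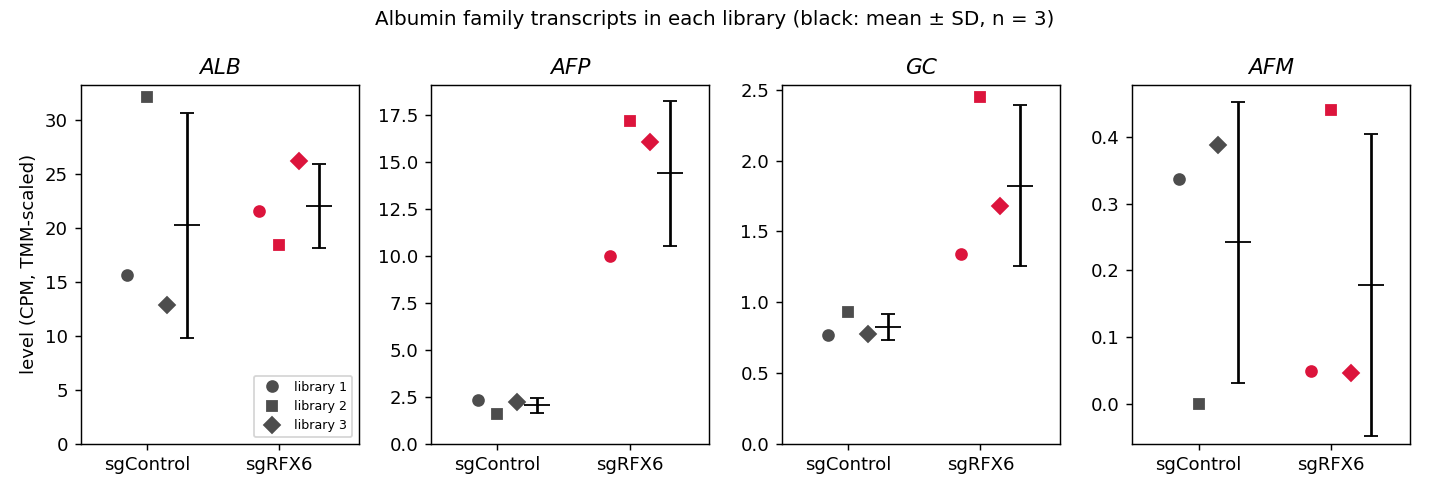
Level in CPM (TMM-scaled) of ALB, AFP, GC and AFM in the 3 sgControl (grey) and 3 sgRFX6 (red) libraries, on a separate linear axis for each gene, with the mean ± SD in black. AFP lay between 1.58 and 2.31 CPM in sgControl and between 9.98 and 17.1 CPM in sgRFX6, while the ALB libraries overlapped.

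To compare the members with each other, levels were divided by the length of all annotated exons of each gene. Per kilobase, the mean level in sgControl was 5.98 CPM for ALB, 0.623 for AFP, 0.347 for GC and 0.108 for AFM. In sgRFX6 it was 6.52 CPM per kilobase for ALB, 4.41 for AFP, 0.766 for GC and 0.0794 for AFM. The order ALB, AFP, GC, AFM held in each of the 6 libraries. The level of ALB per kilobase was 5.64 to 19.6 times that of AFP in the sgControl libraries and 1.04 to 2.08 times in the sgRFX6 libraries. Within sgControl no library of one member reached the range of the next in order. The same held in sgRFX6, where ALB and AFP came closest, with 5.45 CPM per kilobase in the lowest ALB library and 5.26 in the highest AFP library. The gap between ALB and AFP in sgRFX6, 2.11 ± 1.68 CPM per kilobase (SD, n = 3), was narrow beside its spread. With the longest transcript in place of all exons, the mean level of ALB over the 6 libraries was 9.33 CPM per kilobase in place of 6.25.

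Set against the other tested genes with a known length, none of the members was among the abundant transcripts. ALB was above 52.5% of 12208 genes by level per kilobase in sgControl and above 54.0% in sgRFX6. AFP was above 12.5% of them in sgControl and above 44.4% in sgRFX6. GC was above 7.71% and 14.4%, and AFM above 2.14% and 1.61%.

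The balance of AFP and ALB was also taken within each library, which needs no scaling between libraries. AFP made up 12.9%, 4.69% and 14.6% of the AFP and ALB counts in sgControl and 31.7%, 48.2% and 38.0% in sgRFX6. The 95% Clopper-Pearson intervals, which cover counting error only, were 9.64% to 16.7%, 3.35% to 6.35% and 11.1% to 18.8% in sgControl. In sgRFX6 they were 28.0% to 35.4%, 44.0% to 52.4% and 34.9% to 41.2%. Each sgRFX6 share was above each sgControl share, and no interval of one group reached the other group. The mean share was 10.7% ± 5.30 (SD, n = 3) against 39.3% ± 8.37 (SD, n = 3). On the log2 scale the ratio of AFP to ALB was 2.56 higher in sgRFX6, and between 2.0 (without sgControl library 2) and 2.90 (without sgControl library 3) when a library was left out. The family as a whole stood at 19.1, 34.6 and 16.2 CPM in sgControl and 32.9, 38.4 and 43.9 CPM in sgRFX6, so sgControl library 2, with its high ALB, overlapped the sgRFX6 range.

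**Figure D2:**
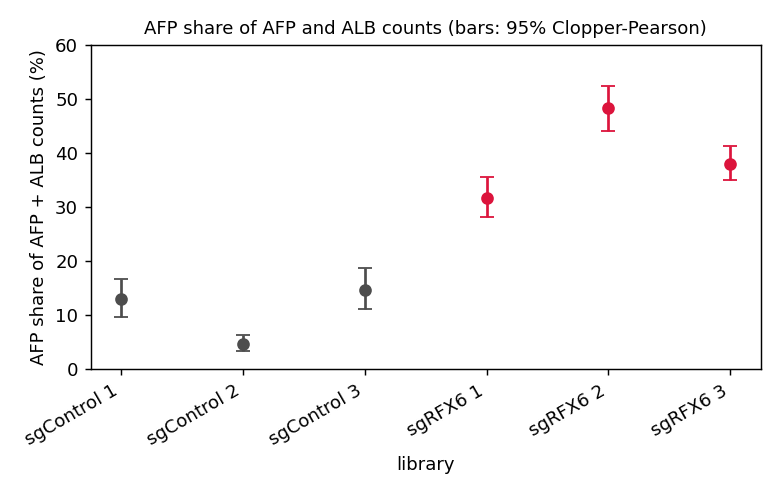
Share of AFP in the sum of AFP and ALB counts (percent, linear axis) in each of the 6 libraries, with 95% Clopper-Pearson intervals. The sgControl libraries lay between 4.69% and 14.6% and the sgRFX6 libraries between 31.7% and 48.2%.

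The members followed each other to different degrees from library to library. Over the 6 libraries, the log2 levels of AFP and GC had a Pearson correlation of 0.92, those of AFP and ALB of 0.15, and those of ALB and GC of 0.27. These describe 6 libraries from 2 groups and carry the group difference itself. After each group mean was removed, the values were 0.49, -0.51 and 0.10. The tested genes whose log2 level followed AFP most closely over the 6 libraries were ADGRF1 (r = 0.999), TMSB4X (0.998), the assembled transcript TCONS_00222855 (0.997), NTN4 (0.994) and FER1L6 (0.991), and 435 of 12836 genes had r above 0.9. ADGRF1, an adhesion G protein-coupled receptor, had a mean of 0.515 CPM in sgControl and 6.94 CPM in sgRFX6. For ALB the closest were ANG (0.990), FAM32A (0.981), BCAS1 (0.976), GPC2 (0.976) and SLC9A7 (0.974), and 75 genes had r above 0.9. ANG, the secreted ribonuclease angiogenin, was at 12.9 CPM in sgControl and 13.9 CPM in sgRFX6.

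The genes around the family on chromosome 4 were then described. Within 3 Mb of the AFP start, 31 genes were tested, members included, of which 2 were called higher, AFP and BTC, and none was called lower. ANKRD17, the tested gene before ALB, had a log2 fold change of -0.39 (SE 0.21), and RASSF6, the gene after AFM, one of 1.45 (SE 0.43, adjusted p = 0.122 from edgeR). RASSF6, which encodes a RAS association domain protein, was counted 56, 71 and 49 times in sgControl and 95, 68 and 265 times in sgRFX6, so sgRFX6 library 3 held most of the RASSF6 reads of its group. Beside GC, SLC4A4, a bicarbonate transporter, had a log2 fold change of 0.41 (SE 0.41), and NPFFR2 did not pass the filter. Over the 50 tested genes nearest to AFP the median log2 fold change was 0.14, against 0.02 over all tested genes.

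Of the 22 neighbouring genes taken as the nearest tested on each side of AFP and of GC, 1 was called higher and 1 lower (9.09% called, against 3.74% of all tested genes), and 17 had a positive log2 fold change. BTC, the EGF receptor ligand betacellulin, was counted 11, 15 and 8 times in sgControl and 45, 43 and 100 times in sgRFX6. It rose by 2.66 on the log2 scale (SE 0.42, adjusted p = 0.0107 from edgeR), and it lost the call without sgControl library 3. Its neighbours EREG and AREG, which encode further EGF receptor ligands, had log2 fold changes of 0.89 and 1.10 and were not called (adjusted p = 0.369 and 0.0988 from edgeR). EREG and AREG were singled out after their values were seen. So were 2 uncalled neighbours that were lower, CXCL1 at -1.36 (SE 0.48, adjusted p = 0.194 from edgeR) and CXCL8 at -1.23 (SE 0.66, adjusted p = 0.429). Of the 22 neighbours, 5 had a negative log2 fold change. ODAM, a gene of odontogenic epithelium, was counted 35, 89 and 29 times in sgControl and not at all in the sgRFX6 libraries. Its level was at least 13.8-fold lower in sgRFX6, with 3 counts per library taken as the limit (adjusted p = 0.00885 from edgeR).

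**Figure D3:**
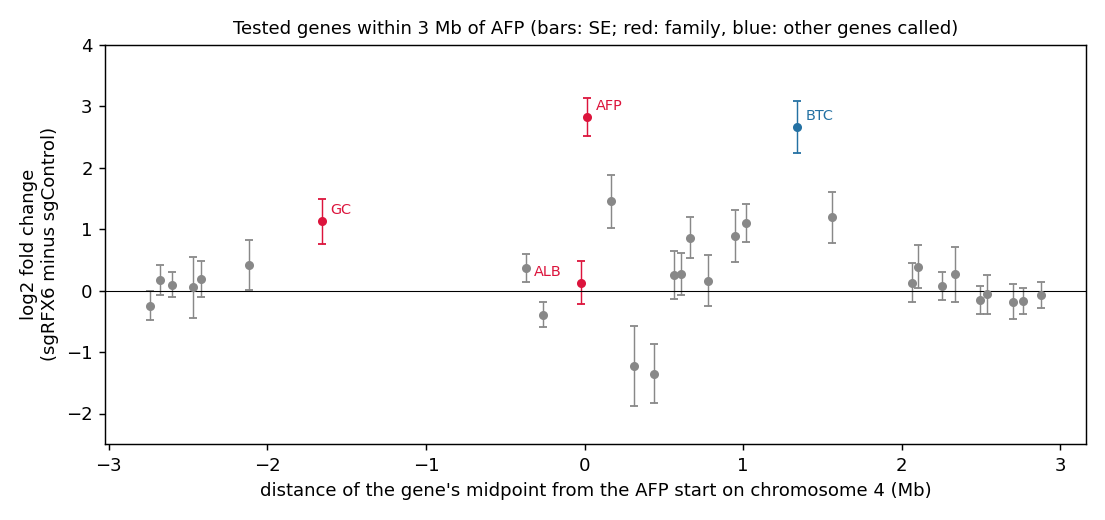
Log2 fold change (sgRFX6 minus sgControl, bars are SE) of the 31 tested genes within 3 Mb of AFP against the distance of their midpoint from the AFP start. AFP at 2.82 and BTC at 2.66 were the genes called by edgeR, while ALB, which precedes AFP, was at 0.13.

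The factors known to act on the promoters and enhancers of ALB and AFP were called at a share near that of all tested genes. Of 41 regulators, 36 were tested, 1 was called higher and none lower (2.78% called, against 3.74% of all tested genes), with a median log2 fold change of 0.01. At an unadjusted p under 0.05 there were 7 of the 36, against 2000 of the 12839 tested genes. Among core hepatocyte factors, the log2 fold changes were -0.27 (SE 0.16) for HNF4A, -0.12 (SE 0.18) for FOXA2 and 0.34 (SE 0.25) for CEBPA, none of them called. HNF4A was lower in each sgRFX6 library than in any sgControl library, as were 11.2% of all tested genes. Larger values that were not called either were singled out after they were seen, for genes whose groups did not overlap. They were -1.08 (SE 0.26, adjusted p = 0.0623 from edgeR) for FOXA1, -0.86 (SE 0.30, adjusted p = 0.182) for FOXA3, -0.70 (SE 0.17, adjusted p = 0.0624) for GATA6 and 1.33 (SE 0.42, adjusted p = 0.150) for HNF4G.

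Repressors of AFP after birth were measured in the same list. ZHX2 was counted 192, 222 and 238 times in sgControl and 169, 102 and 133 times in sgRFX6. Its log2 fold change was -0.45 (SE 0.24, adjusted p = 0.436 from edgeR), with each sgRFX6 level below each sgControl level. ZBTB20 was counted 392, 185 and 249 times in sgControl and 210, 132 and 1151 times in sgRFX6, so 1 library carried its log2 fold change of 0.94 (SE 0.67, adjusted p = 0.583 from edgeR). ZFHX3, a further repressor of AFP, had a value of 0.03 (SE 0.25), and the nuclear receptor NR2F2 one of 0.17 (SE 0.18). The regulator called was NR1H4, the bile acid receptor FXR. It had 4, 5 and 3 reads in sgControl against 22, 12 and 22 in sgRFX6, a log2 fold change of 2.41 (SE 0.44, adjusted p = 0.0203 from edgeR). NR1H4 lost the call without sgControl library 1 or 3 or sgRFX6 library 1.

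Oncofetal genes, which like AFP are active in fetal liver or in hepatocellular carcinoma, moved in both directions. Of 24 on the list 16 were tested, 2 were called higher and 2 lower (25% called, against 3.74% of all tested genes), with a median log2 fold change of -0.10. At an unadjusted p under 0.05 there were 5 of the 16, against 2000 of the 12839 tested genes. The growth factor midkine (MDK) rose by 1.03 on the log2 scale (SE 0.20, adjusted p = 0.0257 from edgeR), and galectin-3 (LGALS3) by 0.85 (SE 0.17, adjusted p = 0.0288). TRIM71, an RNA-binding protein of stem cells, fell by 1.85 (SE 0.29, adjusted p = 0.0104), and the stem cell factor SALL4 fell by 2.70 (SE 0.59, adjusted p = 0.0407). Counts of SALL4 were 15, 41 and 16 in sgControl and 2, 2 and 5 in sgRFX6.

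These differences kept their direction in each alternative that gave a value, with ranges of 0.92 to 1.17 for MDK, 0.74 to 0.97 for LGALS3, -2.01 to -1.68 for TRIM71 and -3.14 to -2.16 for SALL4, but calls were lost with fewer libraries. SALL4 lost its call when any 1 of the 6 libraries was left out. MDK lost it without any library other than sgRFX6 library 3, and LGALS3 without any sgControl library or without sgRFX6 library 1. TRIM71 lost it without sgControl library 3 or sgRFX6 library 1. Glypican-3 (GPC3), a marker of hepatocellular carcinoma, was low, at 7, 17 and 15 reads in sgControl against 10, 30 and 25 in sgRFX6, with a log2 fold change of 1.04 (SE 0.54, adjusted p = 0.417 from edgeR). The fetal growth factor IGF2 had a log2 fold change of 0.67 (SE 0.42) and was not called. DLK1 had 18 counts in sgControl library 2, none in the other sgControl libraries and at most 2 in a sgRFX6 library, and was not tested. H19 was not analysed here.

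Other secreted plasma proteins of hepatocytes did not move in one direction with AFP. Of 36, 25 were tested, 2 were called higher and 4 lower (24% called, against 3.74% of all tested genes), with a median log2 fold change of -0.08. At an unadjusted p under 0.05 there were 12 of the 25, against 2000 of the 12839 tested genes. The summed level of the list was 325 to 405 CPM in sgControl and 226 to 261 CPM in sgRFX6. Called higher were the plasma protein fetuin-A (AHSG), with 37, 47 and 42 reads in sgControl against 120, 107 and 111 in sgRFX6, and kininogen (KNG1), with 4, 9 and 12 reads in sgControl against 64, 29 and 50 in sgRFX6. AHSG rose by 1.68 on the log2 scale (SE 0.27, adjusted p = 0.0119 from edgeR) and KNG1 by 2.73 (SE 0.45, adjusted p = 0.0122). AHSG lost the call without sgControl library 1 or 3 or sgRFX6 library 1, and KNG1 without sgRFX6 library 1.

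The plasma protein genes called lower were 2 fibrinogen chains, the retinol carrier RBP4 and ITIH2, an inter-alpha-trypsin inhibitor chain. FGB fell by 2.45 on the log2 scale (SE 0.32, adjusted p = 0.00417 from edgeR) and FGA by 1.74 (SE 0.28, adjusted p = 0.0107). ITIH2 fell by 1.83 (SE 0.20, adjusted p = 0.00254) and RBP4 by 1.24 (SE 0.24, adjusted p = 0.0247). RBP4 lost its call without sgControl library 2 or 3 or sgRFX6 library 1 or 2. Among carriers that were not called, the log2 fold change was 0.45 (SE 0.53) for the thyroxine carrier TTR, 0.74 (SE 0.49) for APOA1, 0.12 (SE 0.26) for the elastase inhibitor SERPINA1 and 1.05 (SE 0.37, adjusted p = 0.189 from edgeR) for the iron carrier TF. Other uncalled values were singled out after they were seen, for genes whose groups did not overlap. Lower in sgRFX6 were APOB at -1.29 (SE 0.38, adjusted p = 0.116 from edgeR), APOC3 at -2.15 (SE 0.73, adjusted p = 0.176), APOH at -0.38 (SE 0.19, adjusted p = 0.389) and FGG at -1.61 (SE 0.53, adjusted p = 0.164). Higher were APOA2 at 1.37 (SE 0.33, adjusted p = 0.0615 from edgeR), SERPINA6 at 1.37 (SE 0.47, adjusted p = 0.181) and ORM2 at 0.43 (SE 0.34, adjusted p = 0.625). Among the 25 tested genes of the list, values were above 0 for 12 and below 0 for 13.

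Genes that take up or act on the cargo of the family were described in the same way. Of 20 genes that handle albumin, vitamin D or vitamin E, 16 were tested, none was called higher and 1 was called lower (6.25% called, against 3.74% of all tested genes), with a median log2 fold change of 0.04. At an unadjusted p under 0.05 there were 5 of the 16, against 2000 of the 12839 tested genes. FCGRT, the receptor that recycles albumin, had a log2 fold change of 0.54 (SE 0.26, adjusted p = 0.383 from edgeR). The endocytic receptor cubilin (CUBN), which binds albumin and GC, had one of -1.04 (SE 0.38, adjusted p = 0.219). Its partner LRP2 had at most 3 counts in a library and was not tested, and the vitamin D receptor VDR had a value of 0.06 (SE 0.24). The gene called was SPARC, an albumin- and collagen-binding matrix protein. It had 118, 254 and 189 reads in sgControl against 29, 7 and 10 in sgRFX6, a fall of 3.35 on the log2 scale (SE 0.50, adjusted p = 0.00852 from edgeR). The fibroblast markers COL1A1, COL1A2 and COL3A1 were also called lower, while LUM and DCN were not, and the part of these markers in the fall of SPARC was not tested.

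**Figure D4:**
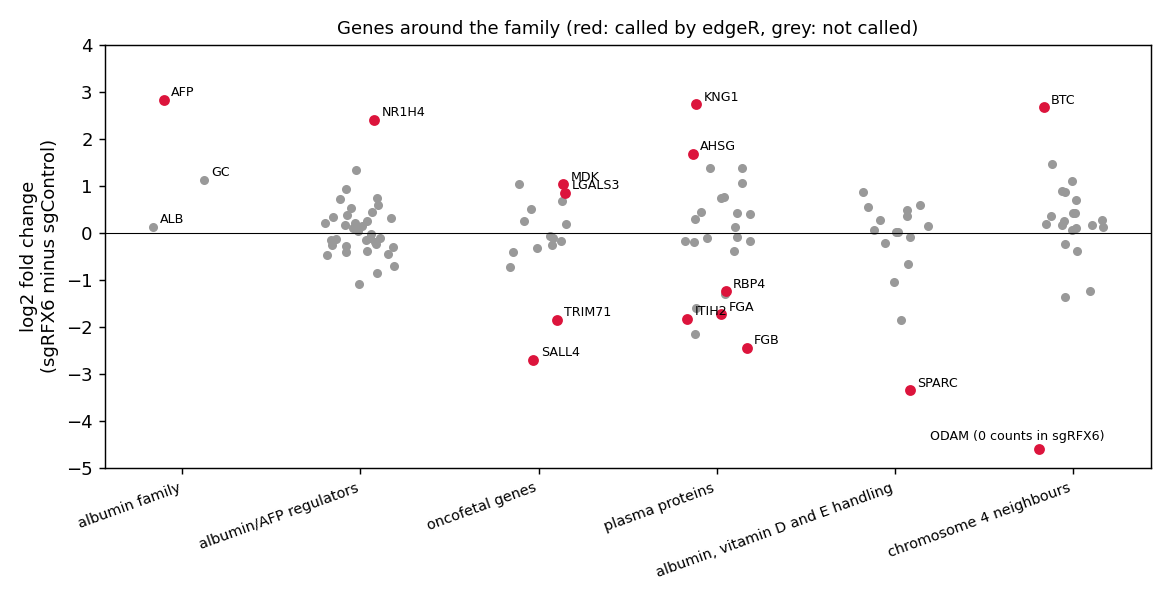
Log2 fold change (sgRFX6 minus sgControl) of each tested gene in the family and in the lists of regulators, oncofetal genes, plasma proteins, genes handling albumin and vitamins D and E, and chromosome 4 neighbours, with genes called by edgeR in red. ODAM, with 0 counts in sgRFX6, is drawn at the lower edge and has no fold change on this axis, and AFP at 2.82, KNG1 at 2.73 and BTC at 2.66 were the highest called points.

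The values of the members were recomputed under 15 alternative fits. AFP was called higher in all 15, with log2 fold changes from 2.36 with limma-voom to 3.03 without sgRFX6 library 1. GC lay between 0.87 and 1.31 and was called in 1, limma-voom, at 0.94. ALB lay between -0.09 and 0.63, was positive in 12 and was called in 1, also limma-voom. The limma-voom fit called 31.1% of all tested genes. The sign of ALB changed among the alternatives, whereas AFP and GC were above 0 in all 15.

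**Figure D5:**
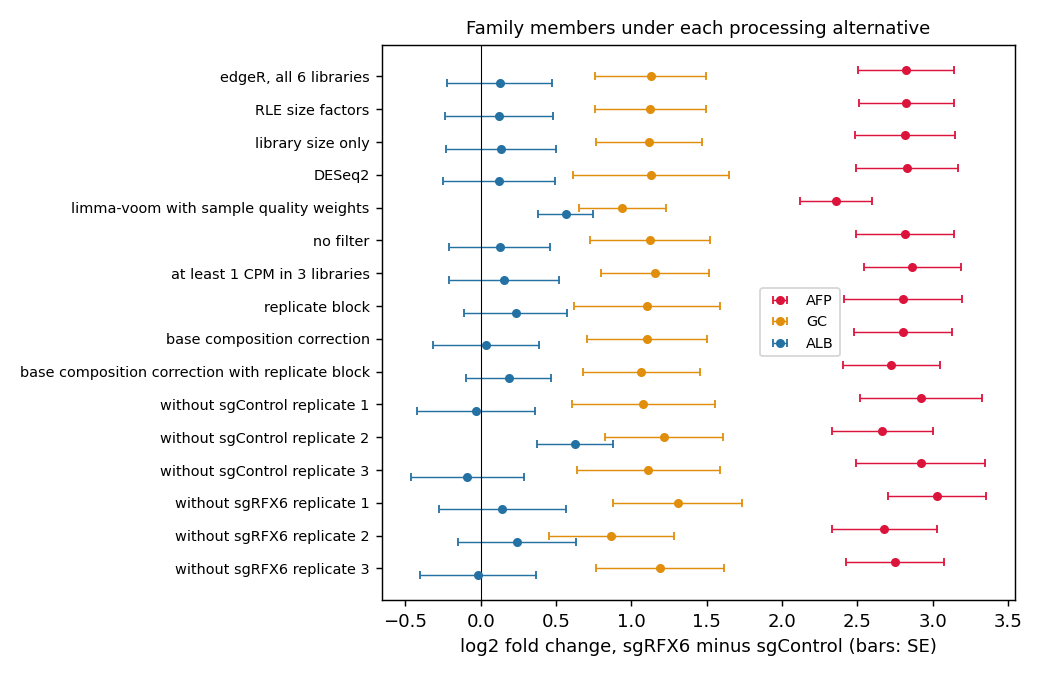
Log2 fold change (sgRFX6 minus sgControl, bars are SE) of AFP, GC and ALB in the edgeR fit of all 6 libraries and in 15 alternatives. AFP stayed between 2.36 and 3.03 and GC between 0.87 and 1.31, while ALB crossed 0.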

How the data were processed

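The authors deposited raw counts per gene or assembled transcript for 6 libraries, and the table was read unchanged. The submitters' processing notes name GRCh38 and hg38. The aligner, counting program and annotation are not given in the sources used here. One row without a name was left out (at most 9.17e-05% of a library's counts). Control columns named cas were taken as sgControl, the sole control group. Testing used edgeR 4.0.16 under R 4.3.3 (filterByExpr with minimum count 10 and minimum total 15, TMM, quasi-likelihood test over all 6 libraries without covariates, Benjamini-Hochberg, threshold 0.05). The totals, between 16730374 and 25070770 counts per library, set the precision. Intervals were computed from the counts of single libraries and so cover counting error only. PCR copies are not separate molecules, which the intervals do not allow for. Positions, lengths and base composition came from GENCODE release 29, which may differ from the authors' annotation. Of 16721 row names, 15422 matched by name and 257 by synonym.

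The members, gene lists, motifs and tests were chosen with earlier results of these data known, and counts of AFP, ALB and AFM had been seen. Genes named are the members, RFX6, a fixed set from each list, called list genes (up to 6 by size of change), the genes next to each member, and the 5 genes most correlated with AFP and with ALB (log2 CPM, prior count 2). Marker genes and those said to be singled out after their values were seen were named outside this rule. The results of some listed items are not reported here. The alternative fits were DESeq2 1.42.0, RLE factors, no TMM scaling, limma-voom (limma 3.58.1) with sample quality weights, 2 other filters, the replicate number as a block, a correction for base composition (span 0.3), and each library left out in turn.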

Additional observations from a re-analysis of the deposited data

How the results depend on the processing

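AFP kept its call in all 15 alternatives, and its value moved by more than the spread between libraries only with limma-voom (2.36). Over the fits without 1 library, AFP lay between 2.67 and 3.03, GC between 0.87 and 1.31, ALB between -0.09 and 0.63, and the log2 ratio of AFP to ALB between 2.0 and 2.90. The level of ALB was 9.33 CPM per kilobase with the longest transcript.

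All calls numbered 480 (3.74% of tested genes) in edgeR, 895 (6.97%) in DESeq2, 3998 (31.1%) in limma-voom and 449 (3.69%) with at least 1 CPM in 3 libraries. They numbered 1374 (10.7%) with the base composition correction, 648 (5.05%) with the replicate block and 819 (6.38%) with both. Without 1 library they ran from 212 (1.62%), lacking sgControl library 3, to 718 (5.52%), lacking sgRFX6 library 3. The list counts below are to be read beside these shares. In edgeR 36 regulators, 16 handling genes, 22 neighbours, 25 plasma protein genes and 16 oncofetal genes were tested. Regulators called numbered 1 in edgeR, 4 in DESeq2, 12 in limma-voom, 0 with at least 1 CPM in 3 libraries, 6 with the base composition correction, 4 with it and the block, and 0 to 3 without 1 library. Genes handling albumin and vitamins numbered 1 in edgeR, 3 in DESeq2, 8 in limma-voom, 2 with the block, 4 with the base composition correction, 2 with it and the block, and 1 in each fit without 1 library. Neighbours numbered 2 in edgeR, 4 in DESeq2, 10 in limma-voom, 5 with the base composition correction, and 1 to 3 without 1 library. Plasma protein genes numbered 6 in edgeR, 14 in limma-voom, and 3 to 7 without 1 library, and oncofetal genes 4 in edgeR and 0 to 3 without 1 library. The cause was not tested.

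Labels share replicate numbers across groups, but the libraries of equal number did not deviate together (correlations -0.41, 0.17 and -0.09). With the replicate block, 648 genes were called, and log2 fold changes were 2.80 for AFP, 0.23 for ALB and 1.11 for GC. Depth limits AFM and GC, which had at most 9 and 39 counts in a library.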
